A study of Schizosaccharomyces pombe with 80 samples.

Results

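The island of dimethylated histone H3 lysine 9 (H3K9me2) at ssm4 was described from peak lists of fission yeast, Schizosaccharomyces pombe, made by chromatin immunoprecipitation and sequencing. Its members were all peaks that overlap ssm4 or either neighbour, but1 or tpr1, by at least 1 bp. There were 62 such peaks among 7203 in 75 lists, and 60 of them came from 28 of the 55 isolates. The series compared 4 groups of isolates grown at 30 C, all of them lacking epe1, which encodes a JmjC-domain protein known to limit heterochromatin. They were 15 seb1-1 epe1delta tfs1DN isolates, 12 epe1delta ago1delta tfs1DN isolates, 13 epe1delta tfs1DN isolates and 15 epe1delta isolates with the empty pDUAL-nmt1 vector. They are called seb1-1, ago1delta, tfs1DN and vector isolates below.

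The tfs1DN transgene encodes a dominant-negative form of the transcript cleavage factor TFIIS, is driven by the thiamine-repressible nmt1 promoter, was inserted at leu1 and was expressed beside the normal tfs1 gene. Because high expression is lethal in cells lacking epe1, the authors kept thiamine present in the epe1delta tfs1DN experiments. They describe the repression as leaky, with most tfs1 transcripts coming from the normal gene. The ago1delta isolates lack Argonaute, the RNA-binding protein of RNA interference, and seb1-1 is a mutant allele of a gene for an RNA-binding protein that acts in transcription termination. Each isolate gave 1 library, and isolates of a group share a parent strain or, for ago1delta and tfs1DN isolates, one parent per set. The other lists came from 7 parents, 9 inputs, and 2 pfs2-11 and 2 pfs2+ samples grown at 37 C.

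In fission yeast, meiotic genes are transcribed at a low level during vegetative growth and their transcripts are destroyed. The YTH-domain protein Mmi1 binds hexamers such as UUAAAC and UCAAAC in these transcripts and hands them to the RNA exosome, a pathway called RNA elimination. Several of the target genes carry small islands of H3K9me2, the histone mark of silent chromatin that is deposited by the methyltransferase Clr4. The ssm4 gene, a target of this pathway, encodes a p150-Glued subunit of dynactin that binds microtubules and acts in the nuclear movements of meiotic prophase. The but1 gene encodes a protein of the thioredoxin family, and tpr1 encodes a subunit of the Paf1 complex, which travels with RNA polymerase II.

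The 3 genes lie side by side on chromosome I and are transcribed in the same direction, from the minus strand. The lists use the build ASM294v2 and the gene positions come from a RefSeq annotation labelled ASM294v3, in which but1 (SPAC27D7.12c) spans chrI:4533326-4534387, ssm4 (SPAC27D7.13c) spans chrI:4534674-4536736 and tpr1 (SPAC27D7.14c) spans chrI:4536975-4540359. Each has 1 coding exon. The gaps are 286 bp between but1 and ssm4 and 238 bp between ssm4 and tpr1, and a tRNA gene on the plus strand, SPATRNAASP.01, ends 398 bp before the but1 end of the cluster. The annotated ssm4 is incomplete at its 3′ end, so its gap to but1 may hold transcribed sequence.

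Mmi1 hexamers are shown because they are the sequence feature by which ssm4 is known as an elimination target. On the transcribed strand, ssm4 held 7 copies of TTAAAC or TCAAAC in 2063 bp, tpr1 held 2 in 3385 bp and but1 held 0 in 1062 bp. The density at ssm4 was 3.39 hexamers per kb, a density that 1.17% of 5113 protein-coding genes reached or passed. The median gene held 0.732 per kb, and 27.3% of genes held no copy. The hexamers of ssm4 were spread out, since no 300-base window held more than 2 of them, and 23.8% of genes had a window with as many. By contrast, mei4 held 7 and num1 held 6 in one window, which 0.0391% and 0.0978% of genes matched. The first such stretch of ssm4 and the densest stretches of mei4 and num1 are printed from RefSeq (ASM294v3), each within 1 coding exon, in the sense of transcription and with the hexamers in capitals. They lie at chrI:4536204-4536394 on the minus strand for ssm4, and at chrII:1473725-1473970 and chrII:899384-899677 on the plus strand for mei4 and num1.
ssm4: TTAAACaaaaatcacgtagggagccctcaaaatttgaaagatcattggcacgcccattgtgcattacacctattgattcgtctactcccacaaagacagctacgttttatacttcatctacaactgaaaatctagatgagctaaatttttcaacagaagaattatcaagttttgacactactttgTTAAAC
mei4: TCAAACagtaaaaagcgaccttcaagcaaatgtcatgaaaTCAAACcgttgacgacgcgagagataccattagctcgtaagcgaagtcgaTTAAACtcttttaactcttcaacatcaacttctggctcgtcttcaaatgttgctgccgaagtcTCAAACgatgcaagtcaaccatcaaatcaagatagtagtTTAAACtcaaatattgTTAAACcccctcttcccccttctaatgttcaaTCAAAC
num1: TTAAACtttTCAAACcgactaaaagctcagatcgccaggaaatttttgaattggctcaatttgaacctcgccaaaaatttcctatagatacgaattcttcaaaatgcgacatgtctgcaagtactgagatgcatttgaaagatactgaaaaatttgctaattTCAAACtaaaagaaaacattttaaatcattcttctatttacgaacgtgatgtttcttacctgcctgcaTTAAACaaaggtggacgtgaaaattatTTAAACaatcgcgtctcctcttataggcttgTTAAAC
Peaks touched the ssm4 stretch in 1 of 15 seb1-1, 1 of 12 ago1delta, 3 of 13 tfs1DN and 15 of 15 vector isolates.

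The lists differ in their listed average coverage and in how that average was made, which bears on every comparison between groups. The fold of a peak is its coverage divided by the coverage of its chromosome, as deposited, and the smallest fold in any list was 3.00. The listed average coverage of chromosome I ran from 17.5 to 46.1 in seb1-1, from 12.7 to 33.6 in ago1delta, from 3.28 to 12.3 in tfs1DN and from 1.70 to 6.52 in vector isolates. The peaks listed per isolate ran from 58 to 88, from 29 to 58, from 75 to 669 and from 43 to 83 in the same 4 groups. The highest fold in a list ran from 167 to 372 in seb1-1 and from 14.2 to 27.9 in ago1delta isolates. It ran from 15.1 to 43.1 in tfs1DN and from 77.7 to 253 in vector isolates. In all 15 seb1-1 and all 15 vector lists, but in 0 ago1delta and 0 tfs1DN lists, the peaks held more coverage than the listed average allows for a whole chromosome. The average in the seb1-1 and vector lists was therefore no plain mean, and it cannot establish their depth. Folds of different groups are therefore set side by side as listed values, and the part of depth and of this average in the differences between groups was not tested. The labels pair each isolate with an input, and no input is shared between the 4 groups, so the sets that share an input cannot be told apart from genotype.

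Every vector isolate carried the island, while most seb1-1, ago1delta and tfs1DN isolates had no peak over ssm4. A peak lay over ssm4 in 2 of 15 seb1-1 isolates (13.3%, 95% exact Clopper-Pearson interval 1.66% to 40.5%), in 2 of 12 ago1delta isolates (16.7%, 2.09% to 48.4%), in 4 of 13 tfs1DN isolates (30.8%, 9.09% to 61.4%) and in 15 of 15 vector isolates (100%, 78.2% to 100%). Over but1 the counts were 0 of 15, 0 of 12, 1 of 13 and 13 of 15 isolates. Over tpr1 they were 0 of 15, 1 of 12, 8 of 13 and 14 of 15. These intervals cover counting error only. No peak overlapped the 3 genes in any of the 9 inputs, the 2 pfs2-11 samples or the 2 pfs2+ samples.

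**Figure D1:**
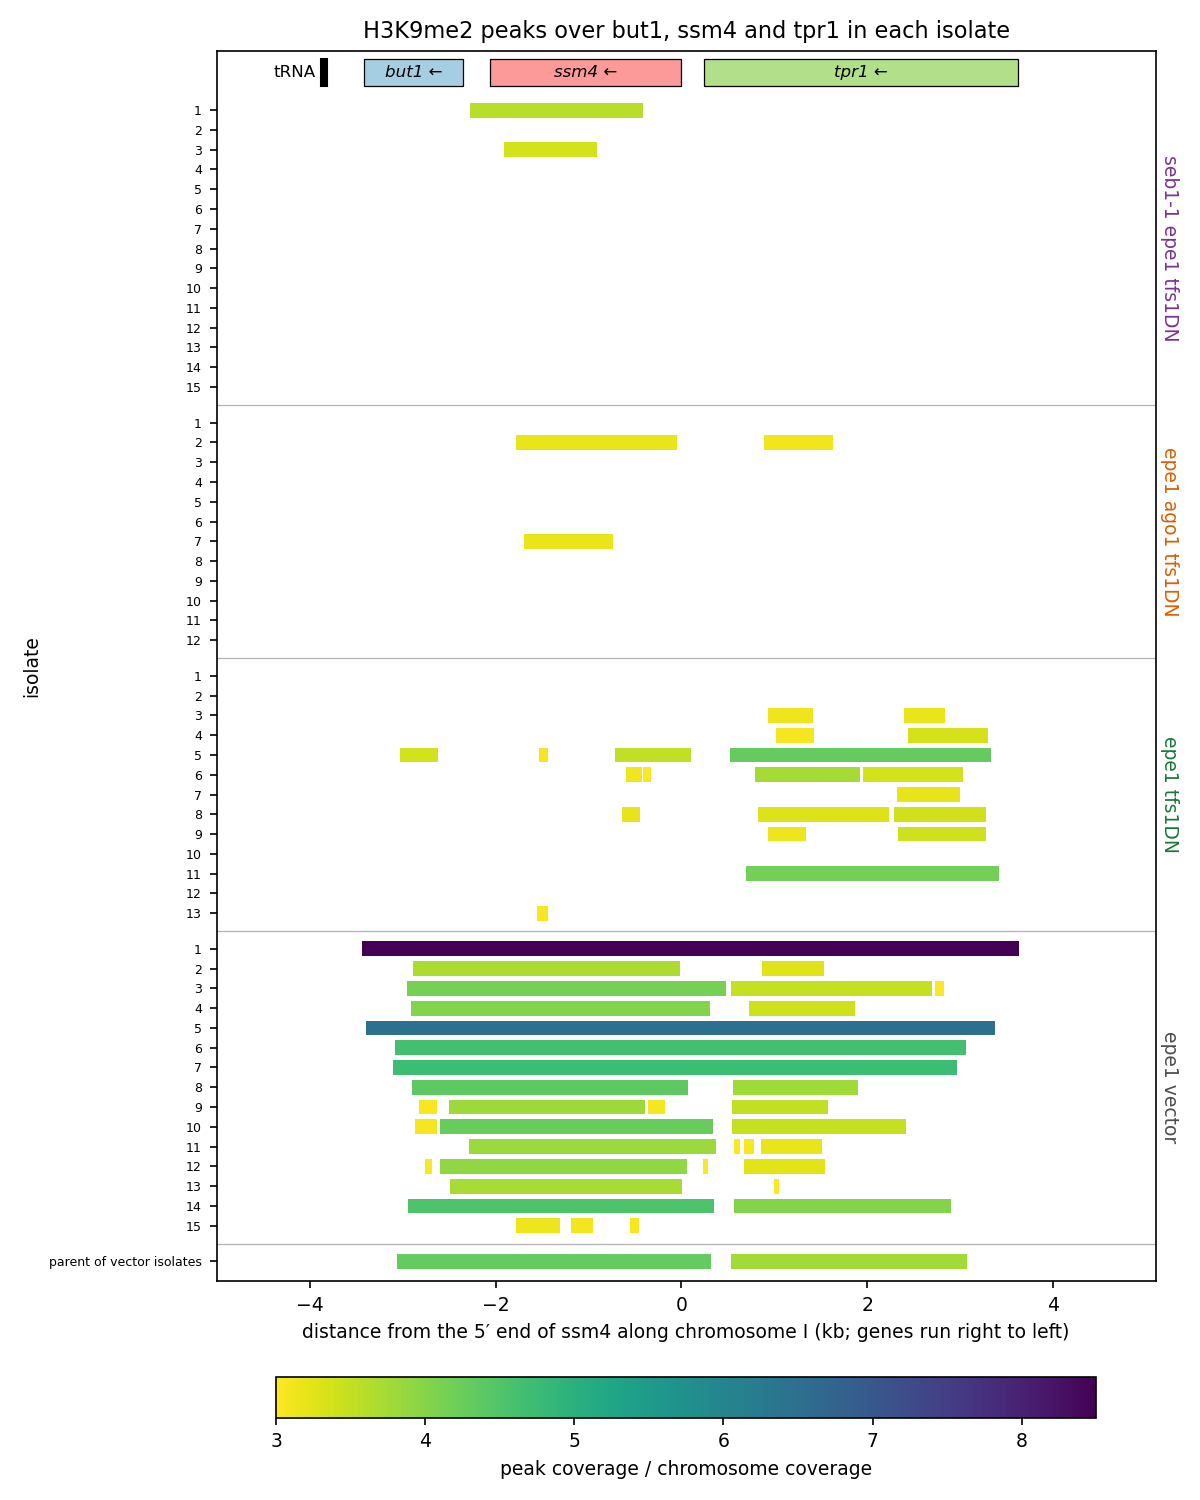
Each bar is a listed H3K9me2 peak, drawn by its distance in kb from the 5′ end of ssm4 along chromosome I (the genes run right to left), with 1 line per isolate and the fold in colour. Peaks lie over ssm4 in 15 of 15 vector isolates, lie mostly over tpr1 in tfs1DN isolates, and appear over ssm4 in only 2 ago1delta and 2 seb1-1 isolates.

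Among vector isolates the island reached across all 3 genes in 13 of 15, and it was unbroken in 4 of them, isolates 1, 5, 6 and 7. Isolate 1 carried the longest and strongest peak, chrI:4533298-4540365, which was 7.07 kb long with a fold of 8.49. Isolate 5 followed with 6.76 kb and a fold of 6.48. At the other end, isolate 15 carried 3 short peaks within ssm4, with 0.804 kb in all and a highest fold of 3.14. The summed length of member peaks had a median of 4.36 kb over the vector isolates, and the highest fold had a median of 4.16. Peaks covered 100% of ssm4 in the median vector isolate and 39.0% in the lowest. Coverage of but1 had a median of 51.3%, and coverage of tpr1 a median of 39.7%, both with a range of 0% to 100%. Thus ssm4 was the most completely covered of the 3 genes, and its neighbours varied from isolate to isolate.

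The edges of the vector island were uneven. The left edge lay from 28 bp outside the 3′ end of but1 to 1635 bp inward of it, which is within ssm4, with a median of 517 bp inward. The right edge lay from 6 bp outside the 5′ end of tpr1 to 4076 bp short of it, with a median of 1722 bp short. Both outermost edges belong to isolate 1, and the next widest island, that of isolate 5, spans chrI:4533347-4540105, within the cluster. The leftmost edge in any isolate was 370 bp from the tRNA gene, and 0 of 55 isolates carried a peak over that tRNA gene. Inside the island, all 15 isolates shared stretches within chrI:4534966-4536276 in ssm4. From the 5′ end of ssm4 into the 3′ part of tpr1, the count was lowest at chrI:4537226-4537266, inside tpr1, with 4 of 15 isolates. A peak crossed the gap between ssm4 and tpr1 in 9 of 15 vector isolates and in 0 isolates of the other groups.

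**Figure D2:**
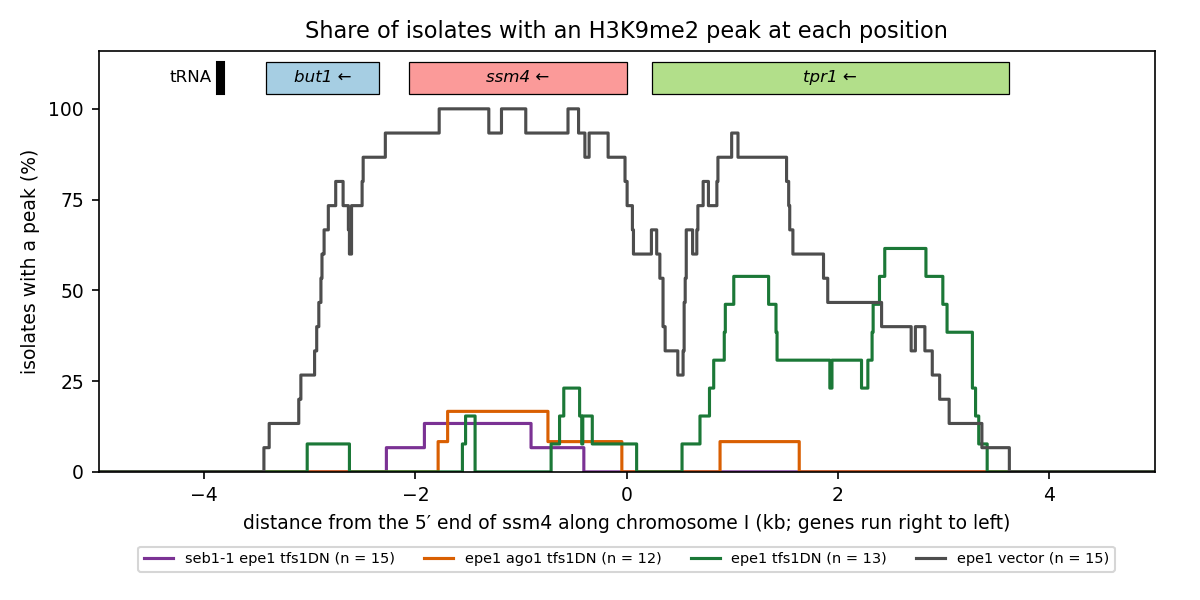
The lines give the percentage of isolates of each group with a listed peak at each position, against the distance in kb from the 5′ end of ssm4. The vector line reaches 100% within ssm4, and the tfs1DN line is highest over the 5′ part of tpr1, where 8 of 13 isolates carried a peak.

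In tfs1DN isolates the island had another shape: ssm4 was mostly bare and tpr1 was the gene most often marked. Of 13 isolates, 9 carried a member peak, and of these 5 had peaks over tpr1 alone, 2 over ssm4 and tpr1, 1 over ssm4 alone and 1 over all 3 genes. Peaks over ssm4 were found in isolates 5, 6, 8 and 13. They covered 39.5%, 12.9%, 8.97% and 5.77% of the gene, with highest folds of 3.52, 3.13, 3.20 and 3.05. These were short pieces, and the 0.119 kb peak of isolate 13 was its only member peak. Over tpr1, isolates 3, 4, 5, 6, 7, 8, 9 and 11 carried peaks. They covered 27.2%, 37.4%, 83.0%, 65.5%, 19.8%, 71.0%, 40.1% and 80.3% of the gene, with highest folds between 3.19 and 4.31. The strongest were isolate 5, with 2.81 kb at a fold of 4.31, and isolate 11, with 2.72 kb at a fold of 4.16. Isolate 5 was also the only tfs1DN isolate with a peak over but1, at a fold of 3.38. Isolates 1, 2, 10 and 12 carried no member peak. All peaks over tpr1 came from the larger set, isolates 2 to 12, in 8 of 11 isolates. In the set of isolates 1 and 13 the count at tpr1 was 0 of 2. The lists of the larger set held 118 to 669 peaks and those of the smaller set 83 and 75. The part of the set in this pattern was not tested.

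Peaks over ssm4 and but1 were rarer in tfs1DN than in vector isolates, and at tpr1 the difference did not pass the test. Here and in the comparisons below, the tests treat isolates as independent, although isolates of a group or set share a parent. The parent of the vector isolates carried the island and the other parents were listed without it. The tests therefore cannot tell genotype from parent. The difference in isolates with a peak was -69.2 percentage points for ssm4 (Fisher's exact test with Benjamini-Hochberg adjustment over 1582 genes, adjusted p = 0.000561) and -79.0 points for but1 (adjusted p = 0.000513). For tpr1 it was -31.8 points (adjusted p = 0.17). In this comparison 11.6% of the genes tested were called lower and 23.4% higher in tfs1DN isolates, which is 183 lower and 370 higher. That balance turned to 203 lower and 30 higher with peaks of fold 4.5 or more. The summed length was 1.25 ± 1.34 kb in tfs1DN isolates (SD, n = 13) and 4.57 ± 1.71 kb in vector isolates (SD, n = 15), a difference of -3.32 kb (permutation test of 100000 resamples, two-sided, adjusted p = 6.67e-05 over 5 comparisons). Within the larger tfs1DN set alone, isolates 2 to 12, the differences were -72.7 points at ssm4 and -3.11 kb in length, both called. The lengths overlapped between the groups, since vector isolate 15 was shorter than 7 of the 13 tfs1DN isolates. With peaks of fold 4.5 or more only, the member gene counts were 0 of 13 and 5 of 15, and no call on presence (adjusted p = 0.094) or length (adjusted p = 0.0791) remained.

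The balance between ssm4 and tpr1 was compared after the map had been seen. Its p-value therefore describes a chosen contrast and cannot serve as a test of the pattern. The contrast was not repeated with other minimum folds or peak lengths. Of the 20 member peaks of tfs1DN isolates, 15 were under 1 kb and 0 reached a fold of 4.5. The balance was the percentage of ssm4 under peaks minus the percentage of tpr1, in isolates with a member peak. In 9 tfs1DN isolates it averaged -39.7 ± 24.9 points (SD), with a lowest value of -80.3, a median of -40.1 and a highest of 5.77. In 15 vector isolates it averaged 45.6 ± 29.1 points (SD), with a lowest value of 0, a median of 41.7 and a highest of 98.2. The groups overlapped only at tfs1DN isolate 13 and vector isolate 1, and the difference was -85.3 points (two-sided permutation test of 100000 resamples, p = 2e-05). More of tpr1 than of ssm4 was covered in 8 of 9 tfs1DN isolates and in 0 of 15 vector isolates. The exception, isolate 13, was the only one of the 9 from the smaller tfs1DN set. Likewise, the peak of highest fold lay over tpr1 without touching ssm4 in 8 of 9 tfs1DN and 0 of 15 vector isolates. The positions shared by most tfs1DN isolates, chrI:4539186-4539566, lie in the 5′ part of tpr1.

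**Figure D3:**
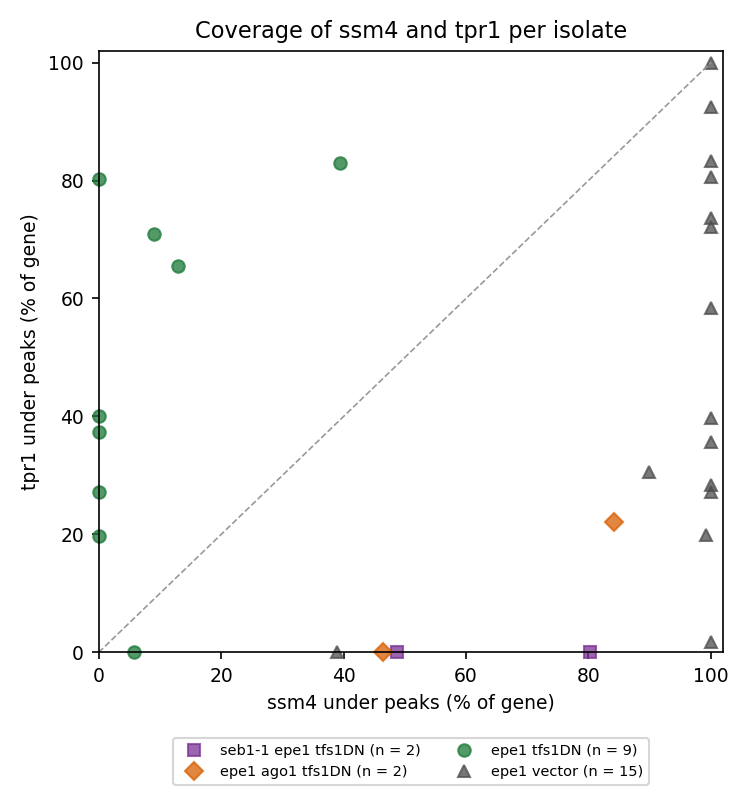
Each point is an isolate with a member peak, placed by the percentage of ssm4 (x axis) and of tpr1 (y axis) under listed peaks, and the dashed line marks equal coverage. Of 9 tfs1DN isolates, 8 lie above the line, and of 15 vector isolates, 14 lie below it and 1 on it.

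In ago1delta isolates the island was rare and, where present, lay over ssm4. Isolate 2 carried a 1.74 kb peak over ssm4 (fold 3.18) and a 0.75 kb peak over tpr1 (fold 3.12), and isolate 7 carried a 0.958 kb peak over ssm4 (fold 3.19). The other 10 isolates had no member peak. Both positive isolates belong to set 1, in which 2 of 3 isolates carried an ssm4 peak, against 0 of 5 in set 2 and 0 of 4 in set 3. Their listed chromosome I coverage was 12.7 and 16.3, against 14.7 to 33.6 with a median of 18.7 in the isolates without an ssm4 peak, and the part of depth was not tested. The share of isolates with a peak was 83.3 points lower than in vector isolates at ssm4 (adjusted p = 0.000158, Fisher's exact test over 646 genes). By the same test it was 86.7 points lower at but1 (adjusted p = 0.000138) and 85.0 points lower at tpr1 (adjusted p = 0.000204). Of the genes tested, 15.9% were called lower and 1.24% higher. That is 103 lower and 8 higher, which turned to 60 lower and 113 higher without peaks that overlap an input peak. The summed length was 0.287 ± 0.746 kb in ago1delta isolates (SD, n = 12) and 4.57 ± 1.71 kb in vector isolates (SD, n = 15), with an adjusted p of 2.5e-05 by the permutation test, from the smallest p that its resamples can give. Without set 1 the difference in length was -4.57 kb and that at ssm4 was -100 points, both still called. With peaks of fold 4.5 or more only, the adjusted p was 0.22 for each gene and 0.0791 for length.

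In seb1-1 isolates a peak was seen over ssm4 alone and only in isolates 1 and 3. Isolate 1 carried a 1.87 kb peak that covered 80.2% of ssm4 at a fold of 3.59, and isolate 3 a 1.00 kb peak (1005 bp) that covered 48.7% at a fold of 3.38. The remaining 13 isolates had no member peak. Over all 15 lists of the group, the highest fold in a list ran from 167 to 372, against 77.7 to 253 in vector lists. The share of isolates with a peak was 86.7 points lower than in vector isolates at both ssm4 and but1 (adjusted p = 1.52e-05 for both, Fisher's exact test over 668 genes). By the same test it was 93.3 points lower at tpr1 (adjusted p = 3.13e-06). Of the genes tested, 13% were called lower and 11.5% higher. The summed length was 0.192 ± 0.532 kb in seb1-1 isolates (SD, n = 15), against 4.57 ± 1.71 kb in vector isolates (SD, n = 15), with the same adjusted p of 2.5e-05 by the permutation test. In both of these groups the listed average was no plain mean. With peaks of fold 4.5 or more only, the adjusted p was 0.139 for each gene and 0.0791 for length.

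**Figure D4:**
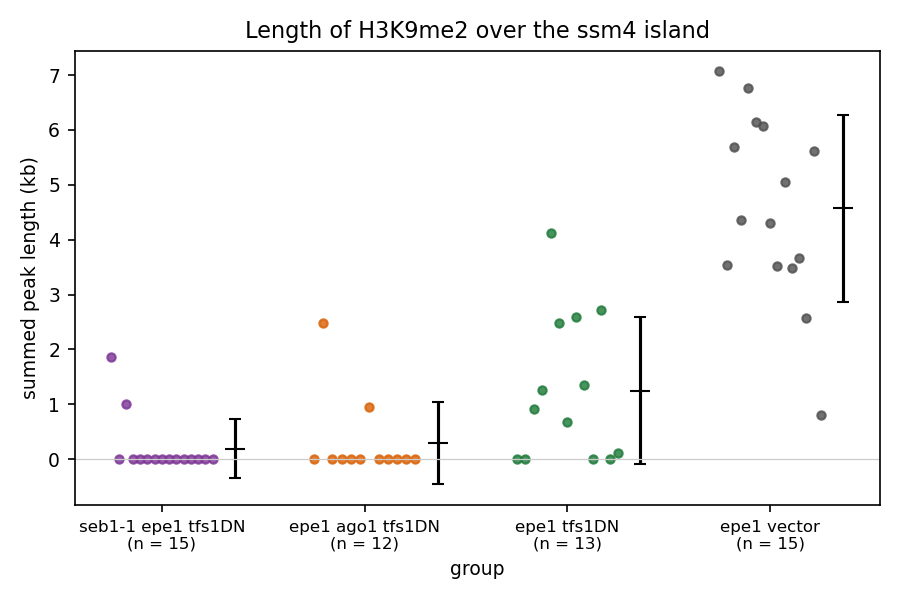
Points give the summed length in kb of peaks over ssm4, but1 and tpr1 in each isolate, with the group mean and SD as a bar beside them. The vector isolates run from 0.804 to 7.07 kb, and 13 of 15 seb1-1 and 10 of 12 ago1delta isolates sit at 0.

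Between the tfs1DN groups the presence of an ssm4 peak could not be told apart, and the difference lay at tpr1. A peak over tpr1 was found in 0 of 15 seb1-1 and 8 of 13 tfs1DN isolates, a difference of -61.5 points (adjusted p = 0.00171, Fisher's exact test over 1508 genes, of which 24.1% were called lower and 13.1% higher in seb1-1 isolates). It was found in 1 of 12 ago1delta and 8 of 13 tfs1DN isolates, a difference of -53.2 points (adjusted p = 0.0462 over 1505 genes, of which 19.1% were called lower and 5.12% higher in ago1delta isolates). The balance of calls over all genes turned here too: with peaks of fold 4.5 or more, 19 were lower and 177 higher in seb1-1 isolates, and 20 lower and 106 higher in ago1delta isolates. The call at tpr1 for ago1delta isolates was close to the threshold and was lost under 8 of the alternatives, among them leaving out tfs1DN isolate 9 (adjusted p = 0.0892), ago1delta set 2 (0.237) or set 3 (0.228). For ssm4 the differences were -17.4 points for seb1-1 (adjusted p = 0.532) and -14.1 points for ago1delta isolates (adjusted p = 1). The summed length differed by -1.06 kb between seb1-1 and tfs1DN isolates (permutation test, adjusted p = 0.00861) and by -0.963 kb between ago1delta and tfs1DN isolates (adjusted p = 0.0379). With peaks of 1 kb or more only, neither length difference was called (adjusted p = 0.153 for both), and neither was tpr1 (adjusted p = 0.09 and 0.302).

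The island at ssm4 was also read beside 3 other islands at targets of RNA elimination in the same libraries. These islands were chosen with the results known, and among the pathway targets listed below they had peaks in the most isolates. They were mei4, which encodes the forkhead transcription factor of meiosis, mcp7, which encodes a coiled-coil protein of meiotic recombination, and num1 (mcp5), which encodes a cortical anchor for dynein in meiotic prophase. In ago1delta isolates all 3 carried a peak in 12 of 12, while ssm4 had one in 2 of 12. In each pair 10 isolates carried a peak at the other gene only and 0 at ssm4 only (exact McNemar test, adjusted p = 0.00781 over 12 tests). The folds there ran from 4.25 to 5.1 at mei4, from 4.0 to 5.25 at mcp7 and from 3.30 to 5.73 at num1. The targets rec8, spo5, crs1, mek1, mug8, mug9, mug10 and tht2 carried a peak in 0 of 12 ago1delta isolates. The contrast thus holds against the 3 marked targets and not against targets of the pathway in general.

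In tfs1DN isolates mei4 carried a peak in 13 of 13 and ssm4 in 4 of 13 (exact McNemar test, adjusted p = 0.0117). The mei4 folds there ran from 3.24 to 4.22, with a median of 3.47, against a median of 6.75 in vector isolates. Listed folds start at 3.00, and the part of that cutoff in the counts of tfs1DN and ago1delta isolates was not tested. The count at mcp7 was 10 of 13, which did not pass the test against ssm4 (exact McNemar test, adjusted p = 0.075), and num1 matched ssm4 in number with 4 of 13, of which 3 isolates carried both. In seb1-1 isolates few targets were marked, with mei4 in 3 of 15, ssm4 in 2 of 15 and mcp7 and num1 in 0 of 15. There the exact McNemar test gave adjusted p = 1 against mei4 and 0.857 against the other 2. Only 1 isolate had ssm4 without mei4 and 2 had mei4 without ssm4. Against mcp7 and num1, 2 isolates had ssm4 only and 0 the other gene only. So few isolates could not pass this test, which therefore cannot decide whether ssm4 differs from these genes in seb1-1 isolates. In vector isolates all 4 genes carried a peak in 15 of 15.

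In vector, tfs1DN and ago1delta libraries with both peaks, ssm4 was mostly the weaker island. In vector isolates its highest fold was below that of mcp7 in 15 of 15, of mei4 in 14 of 15 and of num1 in 13 of 15, with median ratios of 0.565, 0.631 and 0.85. At a fold of 4.5 or more, ssm4 remained in 5 of 15 vector isolates. Vector isolate 1 was the only vector isolate in which ssm4 exceeded mei4, by a ratio of 1.46. In seb1-1 isolate 1, the single seb1-1 library with both peaks, ssm4 was also above mei4, by a ratio of 1.19. The 2 ago1delta isolates with an ssm4 peak had ratios to mei4 of 0.723 and 0.674. Among the 4 tfs1DN isolates with one, the ratios to mei4 ran from 0.753 to 0.92, and of the 3 that also had a num1 peak, ssm4 was below num1 in 2 and above it in 1.

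**Figure D5:**
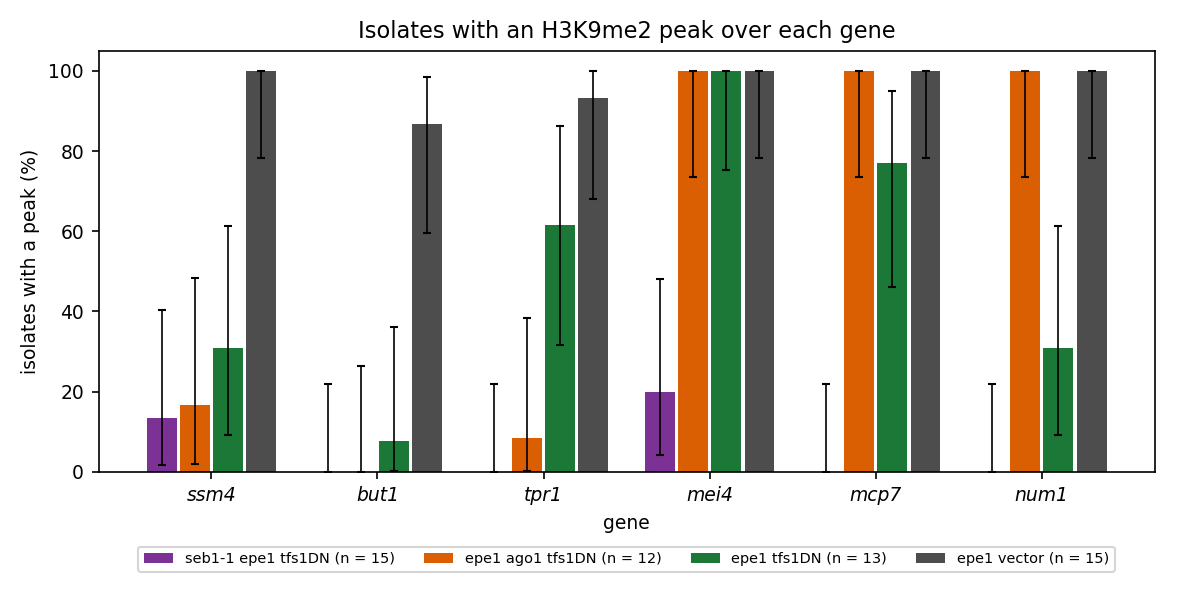
Bars give the percentage of isolates with a listed peak over each gene, with 95% exact intervals. In ago1delta isolates mei4, mcp7 and num1 stand at 100% and ssm4 at 16.7%, and in tfs1DN isolates tpr1 stands at 61.5% and ssm4 at 30.8%.

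Of 18 other genes of the pathway, 11 targets and 7 factors, 6 carried a peak in at least 1 isolate. Besides mei4, mcp7 and num1 these were mug8 in 4 tfs1DN isolates, mug9 in 3 tfs1DN isolates and red1, which encodes a zinc-finger factor of RNA elimination, in 1 vector isolate. Against vector isolates, 3 of the 4 that could be tested were called lower in seb1-1 isolates (mei4, mcp7 and num1), beside 13% of all genes tested. In ago1delta isolates 0 of 4 were called lower, beside 15.9%, and in tfs1DN isolates 1 of 6 was (num1, adjusted p = 0.000561 by Fisher's exact test), beside 11.6%. None was called higher in any of the 3 by Fisher's exact test. The genes mei4, mcp7 and num1, with peaks in 15 of 15 vector isolates, could not have been called higher. At an unadjusted p under 0.05, mug8 alone was higher. It had a peak in 4 of 13 tfs1DN and 0 of 15 vector isolates (Fisher's exact test, p = 0.0349, adjusted p = 0.0891). In ago1delta isolates 0 passed in either direction without adjustment as well. The targets rec8, spo5, crs1, mek1, mug10 and tht2 and the factors mmi1, erh1, mtl1, pab2, rrp6 and mei2 carried none. A hexamer density above that of ssm4 did not always come with a listed peak: rec8 and spo5 held 4.86 and 5.23 hexamers per kb.

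Of the 7 parents, 1 carried the island. The parent of the vector isolates had 2 member peaks, chrI:4533676-4537050 with a fold of 4.33 and chrI:4537267-4539802 with a fold of 3.77, which together covered 100% of ssm4, 67.0% of but1 and 77.2% of tpr1. None of the 337 peaks listed for the parent taken for tfs1DN isolates 2 to 12 was a member (its title names isolates 2 to 11, while isolate 12 is labelled with a parent of 2 to 12), and for isolates 1 and 13 of that group the parent's list was empty, with 0 peaks of any kind. The 3 ago1delta parents and the seb1-1 parent had no member peak, while mei4 carried one in 2 of 3 ago1delta parents and in the seb1-1 parent. The parent taken for tfs1DN isolates 2 to 12 also had no listed peak over mei4, mcp7 or num1. By contrast, the parent of the vector isolates had a peak over each of these genes. Both are epe1delta parents, so the listed island already differed between parents of that genotype. Of tfs1DN isolates 2 to 12, 8 of 11 carried a member peak. The vector isolates thus came from a parent with the island and the others from parents listed without it, so parent and isolate genotype cannot be told apart.

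No neighbouring gene joined the island. Among the protein-coding genes within 20 kb of ssm4, moe1, which encodes a subunit of translation initiation factor 3, carried a peak in 1 isolate, tfs1DN isolate 9, and the rest carried none. That stretch includes mei2, the RNA-binding regulator of meiotic entry. Farther away, the genes whose peaks were most like those of ssm4 across the 55 isolates were ranked by the Jaccard index, the isolates with a peak at both genes divided by those with a peak at either, over 771 genes. They were SPBPB2B2.14c (0.692), SPAPJ695.01c (0.64), num1 (0.588), nhe1 (0.567) and nic1 (0.565), and all but num1 lie within 100 kb of a chromosome end. Isolates share parents, and the genes are read from the same libraries, so the index is a description.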

How the data were processed

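Of 80 samples, 75 had a peak list, 9 of them inputs and the rest H3K9me2, and 5 RNA polymerase II samples without one were not used here. The authors trimmed adaptors, discarded reads shorter than 20 nt, ran Bowtie and smoothed the alignments over 1 kb, with ASM294v2 as the build. SAMtools and bedtools are further tools in the submitters' processing notes. The deposited signal is the coverage averaged by the authors over each peak and over its chromosome, with 1 list per sample. Peak starts were counted from 1.

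A gene had a peak where one overlapped it by at least 1 bp. Genes came from an ASM294v3 annotation, a newer label than that of the lists. No listed peak ran past a chromosome end of this annotation, and the last ones stopped 161 bp (I), 27 bp (II) and 14606 bp (III) short, which does not test shifts within a chromosome. Fisher's exact test was run for every annotated gene with a peak in either group, with Benjamini-Hochberg adjustment and a threshold of 0.05. Lengths were compared by permutation, and islands within a library by the exact McNemar test. Tests were two-sided, and the Fisher test was tested on simulated data. Computations used Python 3.11.15, numpy 2.4.6, scipy 1.17.1 and pandas 2.3.3.

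Members, gene lists and tests were chosen with earlier results of these data known. Named genes were the members, 18 genes of RNA elimination, neighbours within 20 kb with a peak, and the 5 genes with the highest Jaccard index. The ssm4 stretch was the first of several that tie for most hexamers. Isolate numbers pair nothing. Alternatives changed the minimum fold, peak length, overlap, input peaks, the sets that share an input and the isolate-number block.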

Additional observations from a re-analysis of the deposited data

Results flagged for a closer look

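A parent, which enters none of the comparisons, carried the island: the parent of the vector isolates held 5.91 kb of member peaks, against 0 kb in each of the 9 inputs. It is a single library, so this value has no replicate check.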

How the results depend on the processing

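Of 212 values under alternatives, 169 kept their direction and their side of the threshold. With peaks of fold 4.5 or more, presence at the member genes differed by -33.3 points in each comparison with vector isolates and was not called (tpr1 in tfs1DN isolates was not called before either), the length differences were -1.95 kb against vector isolates and 0 kb between the tfs1DN groups, none called, and ssm4 differed from mei4 by 0 points in tfs1DN isolates (not called) and by -66.7 points in vector isolates (called), and from mcp7 by -46.7 points there (called). With genes extended by 1 kb, tpr1 in tfs1DN against vector isolates was called at -38.5 points. With at least 50% of tpr1 covered, ago1delta against vector isolates was not called at -46.7 points. The call at tpr1 in ago1delta against tfs1DN isolates was lost with folds at or above the median of isolate peaks (-38.5 points), with peaks of 1 kb or more (-30.8), without tfs1DN isolate 9 (-50.0), without set 2 (-47.3), without set 3 (-49.0), with at least 50% of the gene covered (-15.4), with genes extended (-44.9) and with the replicate block by isolate number (-58.3 points). In seb1-1 against tfs1DN isolates it was lost with peaks of 1 kb or more (-30.8) and with 50% of the gene covered (-15.4 points). The length difference of ago1delta and tfs1DN isolates was not called with peaks of 1 kb or more (-0.559 kb), as a difference of medians (-0.922 kb), without set 2 (-0.758 kb), without set 3 (-0.819 kb) or with the replicate block (-1.06 kb). That of seb1-1 and tfs1DN isolates was not called with folds at or above the median (-0.564 kb), with peaks of 1 kb or more (-0.512 kb) or as a difference of medians (-0.922 kb).

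Directions turned only in comparisons that were not called. For ago1delta against tfs1DN isolates, ssm4 gave 8.33 points with peaks of 1 kb or more or with 50% of the gene covered, and but1 gave 1.28 points with genes extended. For seb1-1 against tfs1DN isolates, ssm4 gave 5.64 points with folds at or above the median, 13.3 points with peaks of 1 kb or more and 6.67 points with 50% of the gene covered. For ssm4 against mei4 in seb1-1 isolates it gave 13.3 points with peaks of 1 kb or more. The cause was not tested.

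The number of genes called moved by over 1.5 times in 4 comparisons. In tfs1DN against vector isolates it was 553, but 233 with folds of 4.5 or more, 305 with folds at or above the median, 256 with peaks of 1 kb or more (370 higher and 183 lower became 63 and 193, and lower calls also led under both fold settings and at 50% of the gene), 275 with 50% of the gene covered and 952 with genes extended. For ago1delta against vector isolates 111 became 35 without set 2, 66 without set 3, 66 with 50% covered, 36 with the block and 173 without peaks that overlap an input peak (113 higher and 60 lower, against 8 and 103). For ago1delta against tfs1DN isolates 364 became 126, 170, 139, 146 and 654 under the 5 settings named first, and for seb1-1 against tfs1DN isolates 561 became 196, 312, 243, 273 and 966. The isolate numbers are names: same-number isolates had median correlations between -0.0272 and 0.0408 over the 5 comparisons, and 2 pairs of pfs2 samples 0.0899, so the block stands as a check only. Both pfs2-11 and both pfs2+ samples held 0 kb under every alternative. Depth is known only through the listed chromosome coverage, which was no plain mean in seb1-1 and vector lists. Islands weaker than a fold of 3.00 were not detectable in these lists.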

Other observations

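Short stretches beside the genes also carried signal that the counts leave out. Across all lists, 2 peaks lay wholly between but1 and tpr1 without touching ssm4 or either neighbour, the longer of them 240 bp, and they were not counted as member peaks. Of the 60 member peaks in isolates, 32 were shorter than 1 kb and 55 had a fold below 4.5. The 20 member peaks of tfs1DN isolates had a median length of 0.575 kb, and 15 of them were under 1 kb, while the 35 of vector isolates had a median of 1.34 kb, with 15 under 1 kb.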
